A study of Mus musculus with 14 samples.

Results

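Fatty acid oxidation and its control by PPAR were followed through 9 genes in mouse heart ventricle: Cd36, Plin5, Angptl4, Cpt1a, Cpt1b, Acadl, Acadm, Pdk4 and Ucp3. They were taken by gene symbol from a table of 14161 genes, all 9 were present, and all 9 passed the filter on low values that 14156 genes passed. Polyadenylated RNA of whole ventricle was sequenced from 14 male mice, collected 4 hours after an intraperitoneal injection. The genotypes were GX/GX, a change of the cardiac sodium channel NaV1.5 carried on both alleles, and WT/WT. The treatments were DMSO, the vehicle, and MRL5, a GX family compound known only by its code name that blocks the NaV1.5-GX channel. There were 4 GX mice given DMSO, 5 GX mice given MRL5, 3 WT mice given DMSO and 2 WT mice given MRL5. The sources used here do not give age, strain background or dose.

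The heart draws most of its energy from fatty acids. These enter the cell through carriers such as CD36, are stored in lipid droplets or coupled to carnitine at the outer mitochondrial membrane, and are then shortened step by step in the matrix. PPARalpha and PPARdelta are nuclear receptors that fatty acids themselves activate. Paired with RXR on DNA they raise transcription of genes at each of these steps, among them Pdk4, Angptl4 and Ucp3, so that these transcripts are widely used as readouts of fatty acid supply in heart and skeletal muscle.

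The deposited values are a signal in scaled reads per base. Their scaling by transcript length is not known, so levels are compared between libraries and not between genes. Column sums of the signal lay between 17244042 and 22163644, and rank correlations between pairs of libraries between 0.969 and 0.992. All 8 markers of ventricular cardiomyocytes were present in each library, with summed signals of 560062 to 721490. Atrial markers were high in WT DMSO 2, with a summed signal of 26227, against 796 to 6068 in the other libraries. Nppa was the largest part of this sum in each library. The atrial myosin light chains Myl7 and Myl4 were at 3967 and 5676 in WT DMSO 2. They were at 643 and 868 in GX DMSO 3 and at 133 and 265 in GX MRL5 4. Elsewhere they were at 0 to 20.7 and 20.7 to 103. The library names place GX MRL5 4, WT DMSO 2 and WT DMSO 3 in a set numbered 174 and the other 11 libraries in a set numbered 148. Across 71 pairs of libraries of different groups, deviations from the group means correlated most over genes between GX MRL5 4 and WT DMSO 2 (r 0.47), between GX DMSO 3 and WT DMSO 2 (r 0.40) and between GX DMSO 1 and GX MRL5 1 (r 0.31). GX DMSO 1 and GX MRL5 1 had close values for several of the 9 genes, such as 3397 and 3352 for Pdk4 and 207 and 216 for Angptl4. GX MRL5 3 stood apart by a heat shock transcript, Hspa1a, chosen after its values were seen, which was at 53385 against 149 to 1187 in the other libraries. Because whole tissue was sequenced, fewer cells of a type and less RNA per cell cannot be told apart.

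Promoter sequence is shown for 2 of the 3 genes that varied most between group means and for 1 that hardly varied, since PPAR is known to act through the hexamer AGGTCA. The letters are the 250 bases upstream of the start site in RefSeq on GRCm38.p6, read 5′ to 3′ on the gene's strand, with AGGTCA or its reverse complement TGACCT in capitals. Pdk4 (chr6:5496279-5496528, minus strand) and Ucp3 (chr7:100472741-100472990, plus strand) are variable genes, and for Angptl4, the most variable, and for Cpt1b no promoter was matched. Acadm (chr3:153944644-153944893, minus strand) is the even one and was chosen after its values were seen.
Pdk4: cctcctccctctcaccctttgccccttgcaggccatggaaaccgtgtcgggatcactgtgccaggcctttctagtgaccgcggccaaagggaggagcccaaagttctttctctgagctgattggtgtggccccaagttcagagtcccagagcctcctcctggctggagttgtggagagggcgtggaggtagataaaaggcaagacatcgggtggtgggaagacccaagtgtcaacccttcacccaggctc
Ucp3: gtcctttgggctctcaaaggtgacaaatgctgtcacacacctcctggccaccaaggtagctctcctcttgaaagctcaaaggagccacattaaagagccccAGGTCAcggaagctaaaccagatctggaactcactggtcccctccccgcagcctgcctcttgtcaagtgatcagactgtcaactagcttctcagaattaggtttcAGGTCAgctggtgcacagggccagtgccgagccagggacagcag
Acadm: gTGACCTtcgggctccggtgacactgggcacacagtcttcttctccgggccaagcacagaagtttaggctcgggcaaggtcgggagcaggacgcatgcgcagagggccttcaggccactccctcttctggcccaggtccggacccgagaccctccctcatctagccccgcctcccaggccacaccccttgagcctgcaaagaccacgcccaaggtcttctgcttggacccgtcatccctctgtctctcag
The Pdk4 window holds no such hexamer. The Ucp3 window holds 2, which begin 149 and 44 bases upstream of the start site, both on the gene's strand. The Acadm window holds 1, 249 bases upstream and on the other strand. RefSeq promoters were matched for 7 of the 9 genes, and 5 of these 7, Ucp3, Acadm, Cd36, Cpt1a and Plin5, have at least 1 AGGTCA on either strand in a window. The 7 genes have 8 windows, since Plin5 has 2, 1 with the hexamer and 1 without. Counted by single window and not by gene, 14% of all 32851 promoter windows of this length have one. The full element AGGTCANAGGTCA, 2 hexamers with 1 base between, was in no window of the 7 genes and in 0.0335% of all windows. The hexamer TGTTCT of glucocorticoid receptor elements was searched on both strands as well, with no match in the 7 genes and matches in 16.1% of all windows. The full element is so rare in all windows that its absence from these 8 is not informative. A match of letters is a description of the window and not a binding site. Only exact letters were matched, so elements that differ from them were not counted, and elements outside these 250 bases were not searched.

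In GX mice given MRL5, Angptl4 and Pdk4 had higher signals than in GX mice given vehicle, 2.65-fold and 1.87-fold by fitted values, and Ucp3 stood 1.35-fold higher. The transport and oxidation enzymes Cpt1a, Cpt1b, Acadl and Acadm, the fatty acid carrier Cd36 and the droplet protein Plin5 stayed between 0.957-fold and 1.06-fold. No gene of the table, and so none of the 9, passed an adjusted p of 0.05 in limma (Benjamini-Hochberg over 14156 genes, percent called 0%). The smallest adjusted p of any gene in this comparison was 0.974 in limma, and 585 genes, 4.13%, had an unadjusted p under 0.05. The authors' deposited table has 0 genes with a q-value under 0.05 in this comparison and 470 with a p-value under 0.05.

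**Figure D1:**
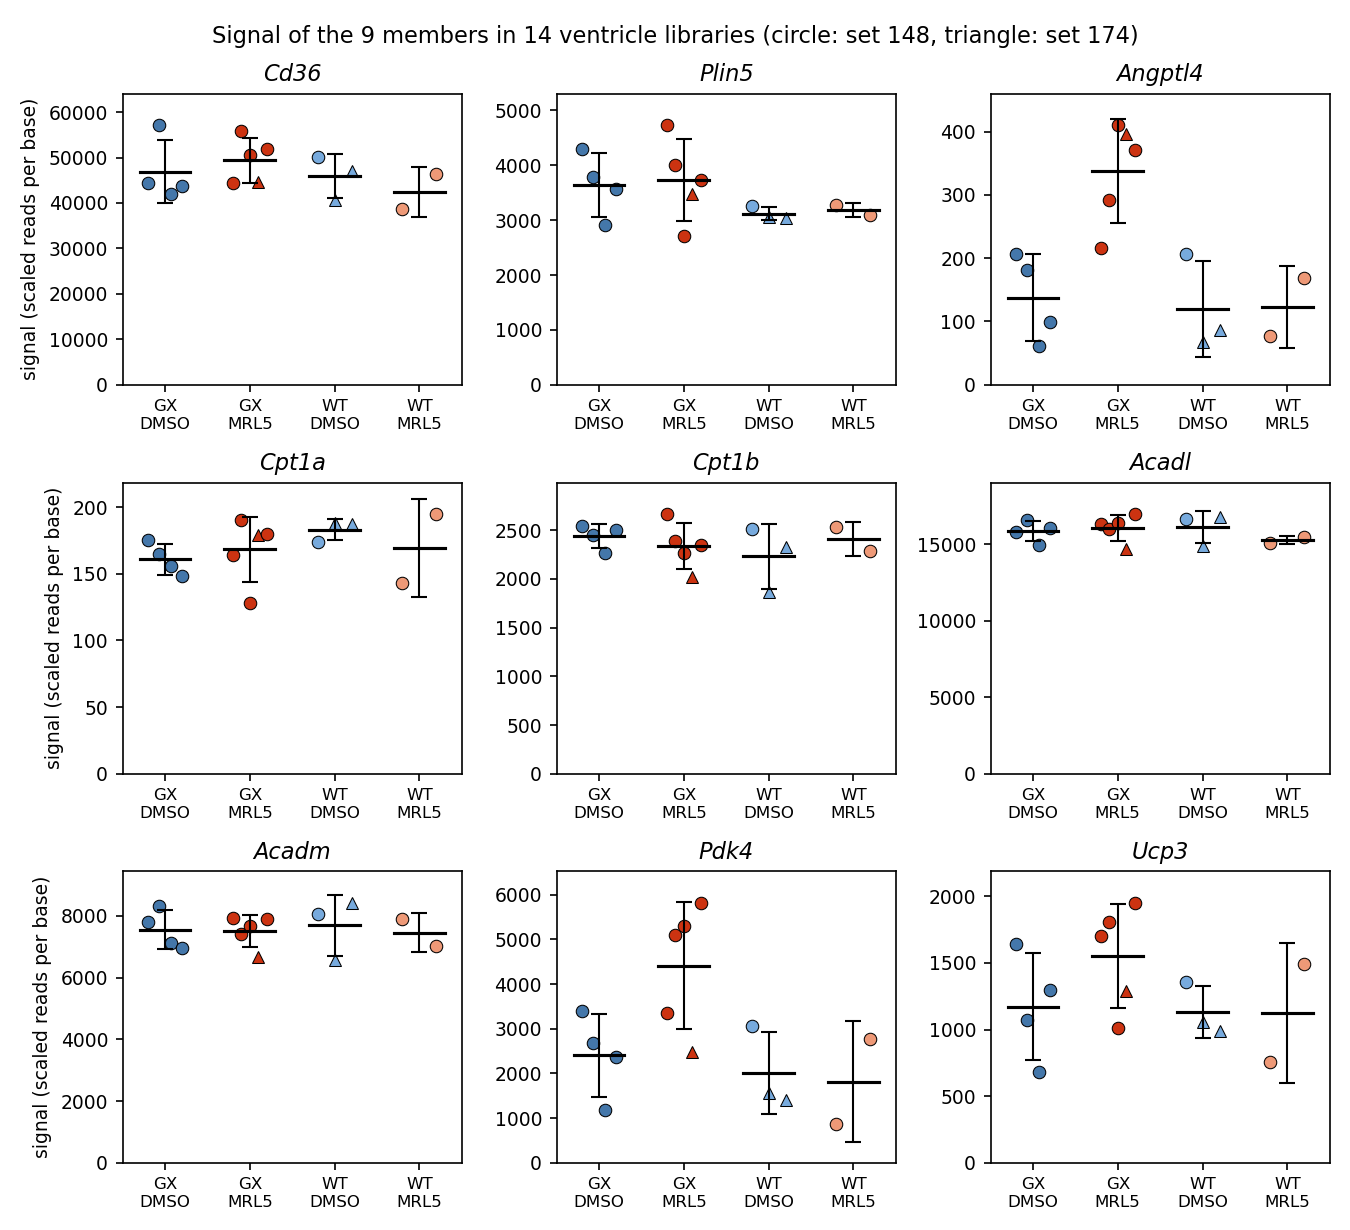
Signal (scaled reads per base, linear axis from 0) of each of the 9 genes in the 14 libraries, by group. Each point is 1 mouse, circles are library set 148 and triangles set 174, the horizontal bar is the group mean and the error bar 1 SD. All 5 GX MRL5 libraries sit above all others for Angptl4, from 216 to 411, while Acadl spans only 14729 to 17008 over all libraries.

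Angptl4 encodes a secreted inhibitor of lipoprotein lipase, the enzyme that releases fatty acids from circulating triglycerides, and is a classical PPAR target. It lies at chr17:33773750-33781830 on the minus strand (GRCm38, GENCODE M21). Its signal in GX mice given DMSO was 207, 182, 61.1 and 99.6, and in GX mice given MRL5 216, 292, 411, 397 and 371. WT mice given DMSO had 206, 67.1 and 86.4, and WT mice given MRL5 77.7 and 169. Every GX MRL5 library was thus above every other library, with GX MRL5 1 at 216 the closest to the vehicle groups, whose highest values were 207 in GX and 206 in WT. The group means were 138 ± 68.7 (SD, n = 4) in GX DMSO, 337 ± 81.9 (SD, n = 5) in GX MRL5, 120 ± 75.3 (SD, n = 3) in WT DMSO and 123 ± 64.2 (SD, n = 2) in WT MRL5. The GX MRL5 mean stood alone at the top, and the other 3 means differed by less than their spread.

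Angptl4 was higher with MRL5 in GX mice by 1.41 on the log2 scale (SE 0.403, 95% interval 0.54 to 2.28), with an unadjusted p of 0.00392 and an adjusted p of 0.999 in limma. It was 1 of the 101 genes, 0.713% of those tested, whose GX MRL5 libraries all lay above the GX DMSO libraries. In WT mice the difference was 0.11 (SE 0.548, interval -1.08 to 1.29, adjusted p 0.978 in limma), an interval that reaches far in both directions. The difference between these 2 effects was 1.30 (SE 0.68), with an unadjusted p of 0.0781 and an adjusted p of 0.755 in limma, and did not pass the test. The authors' deposited table gives Angptl4 a p-value of 0.000553 and a q-value of 0.584 for MRL5 against DMSO in GX mice, with an effect of 0.977 on the natural log scale.

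Angptl4 is also expressed in fat, and 3 of the 8 adipocyte markers were analysed here. The sum of Cfd, Adig and Pck1 ranged from 17.8 to 106 in GX DMSO, 10.1 to 289 in GX MRL5, 23 to 272 in WT DMSO and 23.9 to 27.4 in WT MRL5. Cfd, the adipocyte protein adipsin, was at 251 in both GX MRL5 4 and WT DMSO 2 and at 87 in GX DMSO 3, and between 0 and 11.5 elsewhere. Those libraries, which also had the higher Myl7 and Myl4 given above, held Angptl4 at 397, 67.1 and 61.1. The part of fat or of atrial tissue in the Angptl4 signal was not tested. Without GX MRL5 4 the difference for Angptl4 in GX mice was 1.34, and without GX DMSO 3, the library with the lowest Angptl4 signal of all, it was 1.07 (unadjusted p 0.0148 in limma). Without the heat shock library GX MRL5 3 it was 1.33, and without GX DMSO 1 and GX MRL5 1 together it was 1.81 (unadjusted p 0.00144 in limma).

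The summed signal of erythroid markers, 5 of 5 in the table, was 16314, 23185, 19750 and 22393 in GX DMSO and 18261, 24878, 29930, 31962 and 38022 in GX MRL5, so that 4 of 5 GX MRL5 libraries exceeded all GX vehicle libraries and GX MRL5 1, with the lowest Angptl4 of its group, did not. In WT mice the sums were 26758, 37138 and 19597 with DMSO and 22664 and 24402 with MRL5. WT DMSO 2, at 37138, had Angptl4 at 67.1. The part of blood in the differences of Angptl4 and Pdk4 was not tested.

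Pdk4 encodes pyruvate dehydrogenase kinase 4, which switches off the entry of pyruvate into the citric acid cycle and so spares glucose when fatty acids are burned. It lies at chr6:5483351-5496309 on the minus strand. Its signal was 3397, 2676, 1176 and 2365 in GX DMSO and 3352, 5104, 5307, 2481 and 5822 in GX MRL5. In WT mice it was 3056, 1552 and 1410 with DMSO and 860 and 2771 with MRL5. GX MRL5 2, 3 and 5, from 5104 to 5822, lay above all other libraries, whereas GX MRL5 1 and 4 fell within the range of the GX vehicle group. Means were 2403 ± 925 (SD, n = 4), 4413 ± 1425 (SD, n = 5), 2006 ± 912 (SD, n = 3) and 1815 ± 1351 (SD, n = 2) in the same order of groups, and the 3 lower ones differed by less than their spread.

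The difference of Pdk4 between MRL5 and DMSO in GX mice was 0.91 on the log2 scale (SE 0.407, interval 0.02 to 1.79), with an unadjusted p of 0.0449 and an adjusted p of 0.999 in limma. It depended most on GX DMSO 3, the lowest vehicle library, without which it was 0.60 (unadjusted p 0.16 in limma). Over all fits with 1 library left out it ranged from 0.60 to 1.11. Within library set 148 it was 1.10, and without GX DMSO 1 and GX MRL5 1 together it was 1.19. GX DMSO 3 also had atrial and adipocyte transcripts above those of the other GX DMSO libraries for Myl7, a myosin light chain of atrial muscle, at 643 against 0 to 13.2, and for Cfd, and their part in its low Pdk4 and Angptl4 was not tested. In WT mice Pdk4 differed by -0.29 (SE 0.553, interval -1.49 to 0.91, adjusted p 0.936 in limma), and by -0.95 with the library set as a covariate and -0.98 within set 148 (unadjusted p 0.109 and 0.184 in limma). It was -1.13 without WT MRL5 2, 0.56 without WT MRL5 1 and 0.06 without WT DMSO 1, with 1 WT MRL5 mouse the lowest of all 14 and the other among the higher vehicle values.

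Ucp3 encodes an uncoupling protein of the inner mitochondrial membrane in muscle and heart and lies at chr7:100472990-100486432 on the plus strand. Its signal was 1641, 1069, 683 and 1294 in GX DMSO and 1704, 1809, 1010, 1291 and 1952 in GX MRL5. In WT mice it was 1356, 1058 and 990 with DMSO and 754 and 1495 with MRL5. Ucp3 overlapped between all groups, although GX MRL5 1, 2 and 5 were its highest 3 libraries. The difference in GX mice was 0.44 (SE 0.269, interval -0.14 to 1.01), with an unadjusted p of 0.128 and an adjusted p of 0.999 in limma. Without GX DMSO 3 it was 0.20. An antisense gene, Gm10603, overlaps the start of Ucp3, and whether the counting told the strands apart is not stated.

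Of the 9 genes, 2 had an unadjusted p under 0.05 in the higher direction in GX mice, Angptl4 and Pdk4, against 2.71% of all genes. None had one in the lower direction, against 1.42%. The median log2 difference of the 9 was 0.05, against 0.0055 for all genes, with 7 of 9 values positive against 51.5% of all genes. In WT mice none of the 9 had an unadjusted p under 0.05, against 2.9% of all genes higher and 2.74% lower. Of the 9 differences there 3 were positive, against 49.7% of all genes, with a median of -0.08 against -0.0015 for all genes. None of the 9 had groups that did not overlap, against 9.56% higher and 9.66% lower of all genes. The WT comparison had 0 genes past an adjusted p of 0.05 in limma, a percent called of 0%, with 799 at an unadjusted p under 0.05. The authors' deposited table has 5 genes with a q-value under 0.05 there, none of them among the 9.

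Cd36, for transport into the cell, and Plin5, for storage, had groups that overlapped in each comparison. Cd36, the fatty acid translocase of the plasma membrane (chr5:17781690-17888801, minus strand), had signals of 44494, 57226, 42043 and 43772 in GX DMSO and 44408, 55883, 50535, 44538 and 51831 in GX MRL5. In WT mice it was 50191, 40571 and 46952 with DMSO and 38619 and 46383 with MRL5. The groups overlapped throughout, and 1 vehicle library, GX DMSO 2, held the highest value of all 14. MRL5 against DMSO in GX mice gave 0.08 (SE 0.111, interval -0.16 to 0.32, adjusted p 0.999 in limma).

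Plin5, which coats lipid droplets and ties them to mitochondria in oxidative tissue (chr17:56111601-56117596, minus strand), had signals of 4291, 3793, 2906 and 3569 in GX DMSO and 4739, 4006, 2711, 3474 and 3734 in GX MRL5. In WT mice it was 3252, 3057 and 3043 with DMSO and 3280 and 3101 with MRL5. The WT libraries lay close together. GX DMSO 3 at 2906 and GX MRL5 3 at 2711 were below all of them, and the other GX libraries were above. Means were 3640 in GX DMSO and 3733 in GX MRL5, against 3118 in WT DMSO and 3190 in WT MRL5. The difference with MRL5 was 0.03 (SE 0.138, interval -0.27 to 0.32) in GX mice and 0.03 (SE 0.188) in WT mice.

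Carnitine palmitoyltransferase 1 is the gate through which long-chain fatty acids enter mitochondria. Cpt1b, the muscle form (chr15:89416405-89425863, minus strand), had signals of 2262 to 2540 in GX DMSO, 2020 to 2668 in GX MRL5, 1863 to 2512 in WT DMSO and 2285 to 2531 in WT MRL5, all overlapping. Cpt1a, the form typical of liver (chr19:3322334-3385733, plus strand), had 148 to 175, 128 to 190, 174 to 188 and 143 to 195 in the same order, again overlapping. With MRL5 in GX mice Cpt1b differed by -0.06 (SE 0.0967, interval -0.27 to 0.14) and Cpt1a by 0.05 (SE 0.125, interval -0.22 to 0.32). A gene on the same strand, Gm44502, overlaps Cpt1b and was listed at 7.44 to 47.9, so its share of the reads at that locus is uncertain.

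Acadl and Acadm encode the long-chain and medium-chain acyl-CoA dehydrogenases, the first enzymes of each round of mitochondrial beta-oxidation. Acadl (chr1:66830839-66863277, minus strand) had mean signals of 15866 ± 667 (SD, n = 4) in GX DMSO, 16101 ± 849 (SD, n = 5) in GX MRL5, 16110 ± 1043 (SD, n = 3) in WT DMSO and 15268 ± 268 (SD, n = 2) in WT MRL5. Acadm (chr3:153922357-153944632, minus strand) had 7555 ± 626, 7521 ± 518, 7688 ± 975 and 7459 ± 625 (SD) for the same numbers of mice. No group stood apart for either gene. The MRL5 difference in GX mice was 0.02 (SE 0.0686, interval -0.13 to 0.17) for Acadl and -0.0058 (SE 0.0907, interval -0.20 to 0.19) for Acadm. Across the 6 genes with differences under 0.25 in size, no 95% interval reached below -0.27 or above 0.32.

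**Figure D2:**
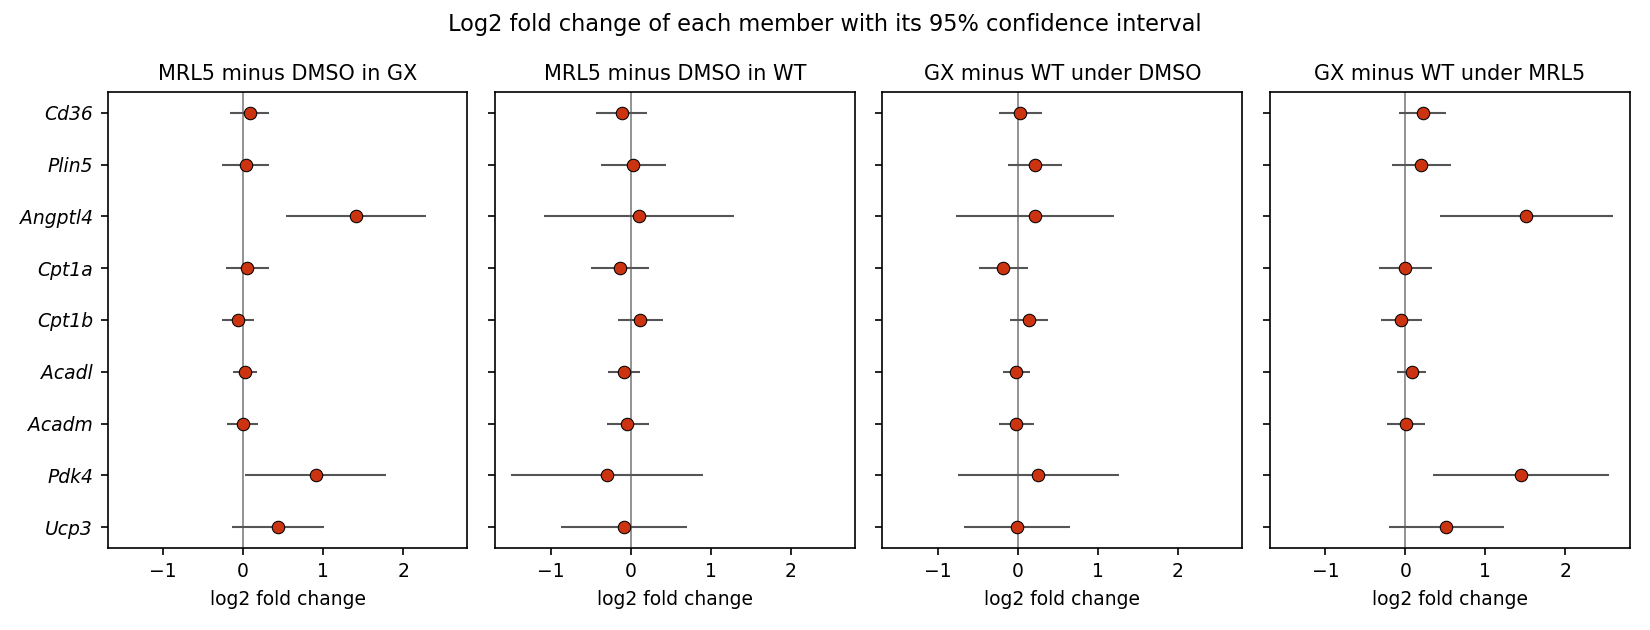
Log2 fold change (x axis) of each of the 9 genes in 4 comparisons, with the point as the fitted value and the line as its 95% confidence interval from limma. The intervals of Angptl4 and Pdk4 lie above 0 for MRL5 against DMSO in GX, from 0.54 and 0.02. For GX minus WT under MRL5 they do as well, from 0.43 and 0.34. The other 7 genes' intervals cross 0 in all 4 comparisons.

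Under vehicle the 9 genes overlapped between GX and WT ventricles. The log2 differences of GX minus WT were 0.25 for Pdk4 (SE 0.463), 0.21 for Angptl4 (SE 0.458), 0.21 for Plin5 (SE 0.157) and -0.19 for Cpt1a (SE 0.142), and the other 5 lay between -0.02 and 0.14. None of the 9 had an unadjusted p under 0.05 in limma, against 2.95% of all genes higher and 2.72% lower, and none had groups apart, against 3.4% higher and 4.02% lower. None passed the adjusted threshold, as for all genes (percent called 0%, 802 genes at an unadjusted p under 0.05). The signs for Pdk4 and Angptl4 did not hold within library set 148, where 1 WT vehicle mouse remains and the differences were -0.45 and -0.74. WT DMSO 2 and 3, both of set 174, had Pdk4 at 1552 and 1410, and WT DMSO 1, of set 148, had 3056. With the set as a covariate the differences were -0.41 for Pdk4 and -0.10 for Angptl4.

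Under MRL5, Angptl4 was 2.85-fold and Pdk4 2.72-fold higher in GX than in WT mice. The log2 difference was 1.51 for Angptl4 (SE 0.502, interval 0.43 to 2.60, unadjusted p 0.00996, adjusted p 0.72 in limma) and 1.44 for Pdk4 (SE 0.507, interval 0.34 to 2.54, unadjusted p 0.0142, adjusted p 0.72 in limma). Ucp3 differed by 0.51 (SE 0.335), Cd36 by 0.22 (SE 0.138) and Plin5 by 0.20 (SE 0.172), and the remaining 4 by -0.05 to 0.08. Thus 2 of the 9 genes had an unadjusted p under 0.05 in the higher direction against 3.6% of all genes, and none in the lower against 2.99%. The groups did not overlap for 1, Angptl4, against 4.76% of all genes higher and 4.49% lower. No gene of the table passed the adjusted threshold in limma (percent called 0%, smallest adjusted p 0.226, 932 genes at an unadjusted p under 0.05). This comparison shares the 5 GX MRL5 libraries with the one between treatments.

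The WT MRL5 group has 2 mice, and they disagreed. WT MRL5 1 had the lowest Pdk4 of all libraries, 860, with Angptl4 at 77.7 and Ucp3 at 754, while WT MRL5 2 had 2771, 169 and 1495. Against WT MRL5 2 alone the GX minus WT difference under MRL5 was 0.96 for Angptl4, 0.60 for Pdk4 and 0.01 for Ucp3. Against WT MRL5 1 alone it was 2.07, 2.29 and 1.00, and the adjusted p of Pdk4 in limma was 0.11. A lone library is assumed in these fits to vary like the other groups. Within library set 148 the differences were 1.44 for Angptl4 and 1.63 for Pdk4.

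The difference between the compound's effects in the 2 genotypes was positive for 7 of the 9 genes, against 52.2% of all genes. The median of the 9 was 0.18 against 0.02 for all genes. Angptl4 at 1.30, Pdk4 at 1.19 (SE 0.687, unadjusted p 0.107, adjusted p 0.755 in limma) and Ucp3 at 0.52 (SE 0.453) led, and the other 6 lay between -0.18 and 0.19. None of the 9 had an unadjusted p under 0.05, against 3.09% of all genes higher and 3.29% lower, and no gene of the table passed the adjusted threshold in limma (percent called 0%, 904 genes at an unadjusted p under 0.05). The 3 leading values changed by more than 1.5 times with single WT MRL5 libraries. Without WT MRL5 1 they were 0.75, 0.35 and 0.03, in this order, and without WT MRL5 2 they were 2.04 for Pdk4 and 1.01 for Ucp3, whose value was 0.28 without GX DMSO 3. Within library set 148 they were 2.18, 2.08 and 0.85. There WT DMSO 1 is the only WT vehicle mouse, and it had the highest Angptl4, Pdk4 and Ucp3 of its group. With the set as a covariate Pdk4 was 2.05 (unadjusted p 0.0116, adjusted p 0.945 in limma) and Angptl4 1.70 (unadjusted p 0.0559). In limma, Angptl4 had an unadjusted p under 0.05 without GX DMSO 1, without WT DMSO 2, and without GX DMSO 1 and GX MRL5 1 together. For Pdk4 this held with set and index series as covariates. In the main fit neither gene was under 0.05, with 0.0781 for Angptl4 and 0.107 for Pdk4 in limma. The share of all genes under 0.05 in these alternative fits is not given here.

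Among themselves the 9 genes split by how much they varied between mice. The coefficient of variation over the 14 libraries was 60.7% for Angptl4, 52.6% for Pdk4 and 30.1% for Ucp3. It was 16.3% for Plin5, 11.7% for Cd36, 11.6% for Cpt1a, 9.08% for Cpt1b, 7.89% for Acadm and 4.8% for Acadl. The median of 12862 genes with a mean signal of at least 10 was 15.6%, so Angptl4, Pdk4 and Ucp3 lay above it, Plin5 close to it and the 5 others below it. Pdk4 spanned 6.77-fold from its lowest to its highest library.

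On log2 values over the 14 libraries, Pearson's r was 0.87 for Pdk4 with Angptl4 (Spearman's rho 0.84), 0.79 for Pdk4 with Ucp3 (rho 0.77) and 0.66 for Ucp3 with Angptl4 (rho 0.58). After the group means were removed these were 0.77, 0.74 and 0.52. Without the 2 libraries farthest from the median of Pdk4, GX DMSO 3 and WT MRL5 1, r was 0.83 for Angptl4 and 0.61 for Ucp3, and without them Ucp3 with Angptl4 had 0.44. Ucp3 with Plin5 had 0.68 (rho 0.73, 0.68 within groups, 0.69 without the same 2 libraries). The values of a pair come from the same library and share its depth and tissue makeup, so r is a description. Over all 36 pairs of the 9 genes r ranged from -0.29 to 0.87 with a median of 0.35, and 12 pairs exceeded 0.5. Cd36 tracked Pdk4 with r of 0.72 (0.57 without GX DMSO 3 and WT MRL5 1). Acadl tracked Acadm with 0.76 (0.59 without GX MRL5 4 and WT DMSO 2). Cpt1a and Cpt1b, the 2 forms of the same enzyme, had the lowest r of the 36, -0.29.

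**Figure D3:**
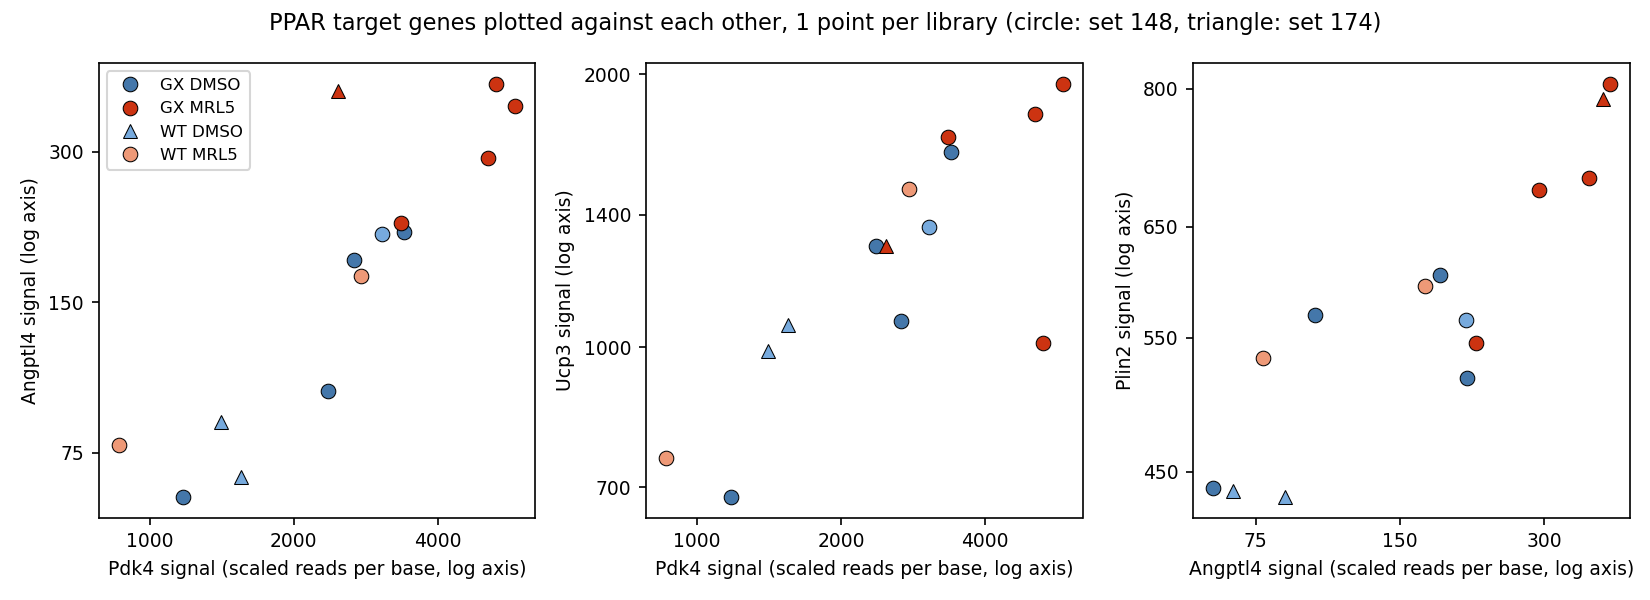
Signal of Angptl4 and Ucp3 against Pdk4, and of Plin2 against Angptl4 (scaled reads per base, log axes), 1 point per mouse, coloured by group, circles for library set 148 and triangles for set 174. GX MRL5 4, of set 174, departs from the line of the other libraries in the first panel, with Angptl4 at 397 and Pdk4 at 2481, and GX MRL5 3 in the second, with Ucp3 at 1010 and Pdk4 at 5307.

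For each of the 9 genes the 2 genes with the highest r among 12237 others were listed. Angptl4 was most like Plin2, which encodes a droplet coat protein (r 0.89, 0.78 within groups), and then like Pdk4. Pdk4 was most like Angptl4 and then Cldn5, a tight junction protein of endothelium (r 0.86). Summed endothelial markers overlapped between groups, from 12599 to 15943 in GX DMSO, 12759 to 15899 in GX MRL5, 12160 to 14539 in WT DMSO and 13586 to 15556 in WT MRL5. Overlap of groups does not bear on a likeness over libraries, and the part of endothelium in that of Pdk4 and Cldn5 was not tested. Ucp3 was most like Atg14, of the autophagy machinery, and Ehhadh, the peroxisomal bifunctional enzyme (r 0.88 each). Acadl was most like Slc25a20, the carnitine-acylcarnitine carrier (r 0.89), and Hadha, a subunit of the trifunctional protein of beta-oxidation (r 0.88).

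The remaining genes had these partners. Acadm was most like Pcca, a subunit of propionyl-CoA carboxylase (r 0.92), and Nipsnap2 (r 0.89). Cpt1b was most like Pgm1, phosphoglucomutase (r 0.94), and Coq8a, of coenzyme Q synthesis (r 0.93). Cd36 was most like Lgr4, a receptor of Wnt signalling, and Esrrg, an orphan nuclear receptor of oxidative metabolism (r 0.89 each). Plin5 was most like L3hypdh (r 0.88) and Maip1 (r 0.84), and Cpt1a like Dctn5 and Ddb2 (r 0.86 each). All are over 14 libraries. Without the 2 libraries farthest from the median of the first gene of a pair, r ranged from 0.73 (Cpt1a with Dctn5) to 0.94 (Cpt1b with Coq8a). This covers the pairs of this and the preceding paragraph. It was 0.85 for Acadm with Pcca and 0.83 for Cpt1b with Pgm1, where the 2 libraries were GX MRL5 4 and WT DMSO 2.

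The other genes of the pathway were read from 9 lists with 107 genes, 104 of them tested. In GX mice none passed an adjusted p of 0.05 in limma for MRL5 against DMSO. At an unadjusted p under 0.05, 1 was higher, Plin2, and 4 were lower, together 4.81% against 4.13% of all genes. Plin2 signals were 518, 605, 439 and 569 in GX DMSO and 546, 687, 806, 788 and 700 in GX MRL5. Of these, 4 exceeded all vehicle values and GX MRL5 1, which also had the lowest Angptl4 of its group, did not. The difference was 0.40 (SE 0.128, unadjusted p 0.00698, adjusted p 0.999 in limma).

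All 4 that were lower belong to the list of PPAR receptors and their regulators. Esrrb, an estrogen-related orphan receptor, ranged from 322 to 390 with DMSO and from 243 to 312 with MRL5 in GX mice without overlap, as for 0.389% of all genes in that direction, and differed by -0.36 (SE 0.105, unadjusted p 0.00404, adjusted p 0.999 in limma). Ppargc1a, the coactivator PGC-1alpha that drives mitochondrial and fatty acid oxidation genes together with PPARalpha, ranged from 1177 to 2177 with DMSO and from 646 to 1474 with MRL5 in GX mice. It differed by -0.57 (SE 0.248, unadjusted p 0.0371, adjusted p 0.999 in limma), and its lowest value was in GX MRL5 3, without which the difference was -0.39 (unadjusted p 0.0896 in limma). Perm1, a muscle regulator downstream of PGC-1, differed by -0.27 (SE 0.0948, unadjusted p 0.0135, adjusted p 0.999 in limma), and by -0.17 without GX DMSO 2. The fourth was Rxrg, a partner receptor of PPAR, outside the rule for named genes, at -0.24.

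Of the 20 genes in this list, 17 had negative and 3 positive differences, where 51.5% of all genes were positive. The median was -0.10 against 0.0055 for all genes. These values come from the same libraries, and the list was chosen with earlier results of these data known. The PPAR receptors and Rxra, unlike Rxrg above, had no unadjusted p under 0.05 in limma. Ppara differed by -0.14 (SE 0.171), Ppard by -0.03 (SE 0.131), Pparg by -0.13 (SE 0.187) and Rxra by -0.05 (SE 0.0745). Klf15, a factor that acts with PPARalpha on cardiac lipid genes, differed by -0.09 (SE 0.225). Ppara ranged from 252 to 336 in GX DMSO and from 205 to 318 in GX MRL5, and so overlapped.

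The 5 lists of enzymes and carriers given here had medians close to 0, from -0.04 to 0.05, with single genes farther out. The 16 genes of mitochondrial beta-oxidation differed by -0.11 to 0.02 with MRL5 in GX mice, 4 of them positive, and the 8 of the carnitine shuttle and malonyl-CoA by -0.15 to 0.04. The 13 genes of the pyruvate dehydrogenase complex and its control, other than Pdk4, differed by -0.17 to 0.19, and the 16 of uptake and activation by -0.16 to 0.16. Among 11 peroxisomal genes 8 were positive, with a median of 0.05 and a highest value of 0.36. No gene of these 5 lists had an unadjusted p under 0.05.

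**Figure D4:**
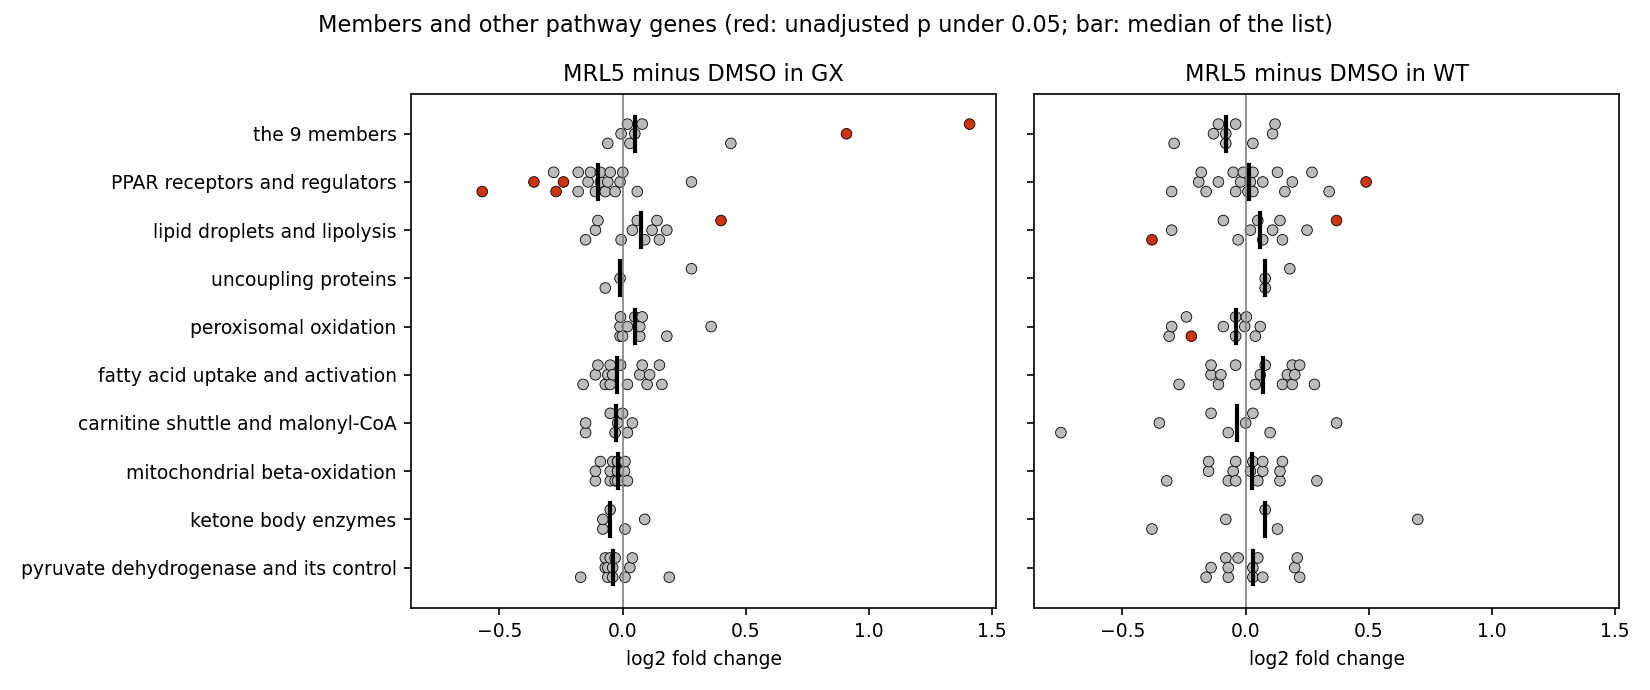
Log2 fold change (x axis) of the 9 genes and of 104 other pathway genes by list, for MRL5 against DMSO in GX (left) and in WT (right). Each point is 1 gene, red points have an unadjusted p under 0.05 in limma and the bar is the median of the list. Angptl4 at 1.41 and Pdk4 at 0.91 lie to the right of all others in GX, the regulators list has its median at -0.10 in GX and 0.01 in WT, and no gene passed the adjusted threshold.

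In WT mice 2 of the 104 other pathway genes were higher and 2 lower with MRL5 at an unadjusted p under 0.05, 3.85% against 5.64% of all genes, and none passed adjustment. Plin4, a droplet coat protein, differed by -0.38, Plin3, another, by 0.37, Cat, catalase, by -0.22, and Ppargc1b, the coactivator PGC-1beta, by 0.49. With the library set as a covariate Plin4 was at -0.44 and Plin3 at 0.23, and Plin3, Cat and Ppargc1b no longer had an unadjusted p under 0.05 in limma (0.215, 0.102 and 0.092). Plin3 was 0.24 without WT DMSO 2, Ppargc1b 0.30 without WT MRL5 2, and Plin4 -0.29 without WT MRL5 1 (unadjusted p 0.15, 0.308 and 0.149 in limma).

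For GX against WT under DMSO 3 were higher and 0 lower: Mgll, monoacylglycerol lipase, at 0.26, Mlycd, malonyl-CoA decarboxylase, at 0.35, and Slc27a4, a fatty acid transport protein, at 0.19. This is 2.88% against 5.67% of all genes. With the library set as a covariate they were 0.15, 0.24 and 0.18 and with equal column sums 0.16, 0.25 and 0.09, and none of the 3 kept an unadjusted p under 0.05 in limma in either fit.

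For GX against WT under MRL5 4 were higher and 4 lower, 7.69% against 6.58% of all genes. The 4 with the smallest p were Pdp1, a phosphatase that activates pyruvate dehydrogenase and so opposes Pdk4, at -0.32, Esrrb at -0.39, Hilpda, an inhibitor of droplet lipolysis, at 0.60, and Fabp5, a fatty acid binding protein, at -0.23. Single WT MRL5 libraries moved these. Without WT MRL5 1 Hilpda was 0.22 and Pdp1 -0.20 (unadjusted p 0.376 and 0.143 in limma), and without WT MRL5 2 Hilpda was 0.97, Fabp5 -0.14 and Esrrb -0.34 (unadjusted p 0.00157, 0.258 and 0.0734 in limma).

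For the difference between the compound's effects 3 were higher and 8 lower, 10.6% against 6.39% of all genes, led by Plin4 at 0.50, Ppargc1b at -0.76, Slc27a4 at -0.33 and Plin3 at -0.48. With the library set as a covariate Plin3 was -0.30 and Slc27a4 -0.32 (unadjusted p 0.197 and 0.0622 in limma). Ppargc1b was -0.58 without WT MRL5 2, and Plin4 0.41 without WT MRL5 1 (unadjusted p 0.103 and 0.0838 in limma). None passed adjustment in limma (smallest adjusted p of these, 0.755).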

How the data were processed

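The submitters' processing notes name kallisto and sleuth 0.3.0 as tools and GRCm38 as the build. The deposited signal, per the file headers scaled reads per base, is 1 value per gene and library and is not a count; depth in reads is unknown. The authors also deposited p-values, q-values and effects on a natural log scale (ln). Of 14307 entries, 146 with values identical to an earlier one were left out, and 19 of 22 symbols that had become dates were restored.

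Values were tested as log2(value + 1), which understates changes of low genes, for genes with a value of at least 1 in at least 2 libraries. limma 3.58.1 (R 4.3.3, trend and robust, 1 mean per group, 14 libraries, 10 residual degrees of freedom, two-sided) gave 5 contrasts, with Benjamini-Hochberg adjustment over 14156 genes and a threshold of 0.05. The design named this test for a unit that is not counts. The fit was checked on simulated data. Likeness is Pearson's r on log2 values (pandas 2.3.3, numpy 2.4.6, scipy 1.17.1) among genes with a mean of at least 10, leaving out predicted and mitochondrially encoded genes.

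The 9 genes, the pathway lists and the marker lists were chosen with earlier results of these data known. Named pathway genes had an unadjusted p under 0.05, at most the 4 smallest per contrast, besides Ppara, Ppard, Pparg, Ppargc1a, Rxra and Klf15. The labels give each library as a separate mouse and give 5 GX MRL5 mice, the design text 4; all 5 were used. Replicate numbers follow record order. Alternatives covered scaling, filters, pseudocount, library set, each library left out and, added after seeing the data, 1 alike pair left out.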

Additional observations from a re-analysis of the deposited data

Results flagged for a closer look

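Of 18 gene and group combinations with 4 or 5 libraries, 1 had a library far from the others. Cd36 was at 57226 in GX DMSO 2, while the other 3 GX DMSO libraries lay between 42043 and 44494, a gap of 0.839 of the range of that group. Chance alone flags about 1 in 20 such groups. The value raises the mean of GX DMSO for Cd36, whose difference between MRL5 and DMSO in GX mice was 0.08 with it and 0.18 without it (unadjusted p 0.105 in limma).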

How the results depend on the processing

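No paired analysis was possible because the labels give each mouse a number of its own and none that groups share. For the 3 GX pairs with neighbouring index numbers, replicates 1, 2 and 3, deviations from the group means correlated by 0.31, 0.07 and 0.03. None of the 9 genes passed an adjusted p of 0.05 in limma under any of 26 alternatives, the smallest being 0.11, for Pdk4 in GX against WT under MRL5 without WT MRL5 2, and none of the other pathway genes named did, the smallest being 0.106. Over the leave-one-out fits the number of genes called in the whole table ranged from 0 to 2 for MRL5 against DMSO in GX, 0 to 58 in WT, 0 to 1 for GX against WT under DMSO, 0 to 63 under MRL5 and 0 to 27 for the interaction; the highest counts in WT, under MRL5 and for the interaction came without WT MRL5 2. With only the groups compared, 1 gene was called under MRL5, and for the interaction 1 with equal column sums and 2 without GX DMSO 1 and GX MRL5 1 together, a choice made after seeing the data. Equal column sums moved the median of all genes by -0.10 for GX against WT under DMSO. Over the leave-one-out fits Angptl4 with MRL5 in GX was 1.07 to 1.66 and Pdk4 0.60 to 1.11.

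Small differences changed sign, and the cause was not tested. For MRL5 against DMSO in GX, Acadm was 0.02 with equal column sums, 0.03 with either covariate fit and 0.04 in set 148, and Pparg 0.0087 in set 148. In WT, with the set as covariate, in set 148 and with set and index series as covariates, in this order, Angptl4 was -0.20, -0.84 and -0.10, Cpt1b -0.06 in each, and Plin5 -0.03, -0.03 and -0.04. For GX against WT under DMSO in the same order, Pdk4 was -0.41, -0.45 and -0.15, Cd36 -0.10, -0.11 and -0.08 (-0.07 with equal column sums), and Cpt1b -0.04, -0.04 and -0.05; Angptl4 was -0.10 and -0.74 in the first 2 of these. Under MRL5, Cpt1b was 0.0067, 0.0053 and 0.00085, Acadm -0.03 with equal column sums and Cpt1a 0.00065 with median-ratio scaling. For the interaction Cpt1b was 0.05, 0.05 and 0.06, and Plin5 0.08 in each and 0.05 with equal column sums. Without WT DMSO 2 and GX DMSO 3 together, Acadl was -0.007 and Plin5 -0.08 in GX, Cpt1b -0.0065 and Angptl4 -0.22 in WT, and Ucp3 0.18 and Cd36 -0.01 for GX against WT under DMSO. Without GX DMSO 1 and GX MRL5 1 together, Angptl4 was -0.04 for GX against WT under DMSO, and Cpt1a 0.0033 and Acadm -0.0089 under MRL5.

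Ranges over the leave-one-out fits that crossed 0 were, for MRL5 against DMSO in GX, Acadm -0.04 to 0.04, Acadl -0.007 to 0.05, Plin5 -0.08 to 0.14, Ppard -0.07 to 0.07, Pparg -0.26 to 0.0087 and Klf15 -0.28 to 0.10. In WT they were Pdk4 -1.13 to 0.56, Cpt1a -0.35 to 0.09, Cpt1b -0.0065 to 0.21, Acadm -0.15 to 0.05, Ucp3 -0.58 to 0.41, Angptl4 -0.45 to 0.66, Cd36 -0.24 to 0.02 and Plin5 -0.007 to 0.07. For GX against WT under DMSO they were Acadm -0.13 to 0.05, Acadl -0.08 to 0.009, Ucp3 -0.20 to 0.23, Angptl4 -0.12 to 0.69 and Cd36 -0.07 to 0.09. Under MRL5 they were Cpt1a -0.22 to 0.22, Cpt1b -0.12 to 0.03 and Acadm -0.07 to 0.10. For the interaction they were Cpt1a -0.04 to 0.41, Acadm -0.05 to 0.14 and Plin5 -0.11 to 0.10. The 2 WT MRL5 mice and the unknown read depth limit what these libraries can show.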
